A study of Mus musculus with 14 samples.

Results

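Hmgb1, Hmgb2 and Hmgb3 encode the HMGB proteins, small chromatin proteins that carry a pair of HMG boxes, the folds with which they bind and bend DNA, and an acidic tail. Inside the nucleus they ease the assembly of transcription and repair complexes. HMGB1 is made by nearly every cell. Released from dying or stimulated cells, it acts as an alarmin that signals through TLR4 and its co-receptor MD-2, TLR2 and RAGE, a route much studied in microglia and in pain. HMGB2 is best known from dividing cells and blood precursors, and HMGB3 from embryonic and haematopoietic progenitors. Here their transcripts were followed in sorted spinal microglia. They are the 3 genes, of 14329 in the deposited values, whose symbol is Hmgb1, Hmgb2 or Hmgb3, selected by symbol, and all 3 passed the filter on low counts. RNA alone was measured, not the proteins, their place in the cell or their release.

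Microglia were sorted as CD45low CD11b+ CX3CR1+ cells from the dorsal horn of the spinal cord at day 5 after the first injection of serum, with 2000 cells per library. WT mice were C57BL/6. TASTPM mice were heterozygous double transgenics that carry, among their transgenes, human APP with the Swedish mutation, driven by the mouse Thy-1 promoter, commonly used to express transgenes in neurons. K/BxN serum transfer (ST) passes arthritis to the recipient through autoantibodies, and Control ST used pooled serum of KRN/C57 mice, both injected on days 0 and 2. All mice were 6 months old, and the study used males and females without naming the sex of each library. There were 4 libraries of WT K/BxN ST, 3 of WT Control ST, 4 of TASTPM K/BxN ST and 3 of TASTPM Control ST. Each held 14223015 to 20239175 reads on genes. Values are normalized counts, that is, reads scaled by a single size factor per library, and 3 reads, taken as the smallest detectable number, equal 2.51 to 3.58 normalized counts. Within a group, libraries are numbered 1 to 4 or 1 to 3 only to name them. The study describes its replicates as separate mice, while the labels do not tie a library to a mouse, and the tests below measure the spread between libraries.

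A fact of the whole series comes before the results. In 4 libraries, numbers 1 and 2 of WT K/BxN ST and numbers 1 and 2 of TASTPM K/BxN ST, Ly6c2, which encodes the surface antigen Ly6C of classical monocytes, stood at 12898 to 29133 normalized counts, against 1.87 to 17.8 in the other 10. The other 14 genes on the list of classical monocyte markers did the same, so that 15 of 15 were above the other libraries, and the list took 2.40% to 4.63% of the reads of these 4 libraries and 0.0525% to 0.142% elsewhere. The 12 microglial markers took 2.29% to 5.39% of the reads in the 4 libraries and 6.54% to 8.46% in the other 10. The 12 neutrophil and granule markers took 0.0629% to 1.40% against 0.0243% to 0.0710%. Of these 12, Mmp8, Lcn2 and Camp were above the other 10 in all 4 libraries, 9 overlapped and 0 were below. Ly6g, among the 9, ran from 0 to 868 normalized counts in the 4 libraries and from 0 to 2.18 in the other 10. Of the 8 markers of myeloid progenitors 3 had values, and in the 4 libraries Prtn3 (562 to 5867 normalized counts against 0 to 52.2) and Flt3 (243 to 923 against 0 to 127) were above the other 10 while Cd34 (4852 to 10214 against 11188 to 16914) was below them. The 5 red cell markers overlapped between the 2 kinds of library, and their median log2 change with serum was -2.29 in WT and 2.13 in TASTPM, with 3 lower and 4 higher at an unadjusted p below 0.05 and none called by limma. The part of these cells in the HMGB values was not tested. Where the study describes the sequenced cells it names CD45low, CD11b and CX3CR1, and its gating scheme for isolating microglia also left out cells positive for Ly6C or CCR2. The serum, interaction and genotype differences of the HMGB genes are therefore given with these 4 libraries and without them. They are named below the Ly6C-high libraries, a description from 1 transcript and no group of the study.

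The stretches before the transcription starts are shown first, because Hmgb2 and Hmgb3 were high in the same 4 libraries as the cell cycle gene Mki67. The letters searched for, on both strands, were CCAAT, then a stretch like the CHR element of genes of late cell cycle (TTTGAA), a stretch like an E2F site (TTTNNCGC) and the GC box (GGGCGG). The stretches like a CHR element and like an E2F site begin with the same 3 letters. The windows are the 250 bases before the RefSeq start of each gene, taken from RefSeq windows of build GRCm38.p6 and found once each in GRCm39, whose coordinates are given. Only the longest run outside any annotated UTR is printed, 5′ to 3′ on the strand of the gene, with CCAAT and TTTGAA, or their complements, in capitals.
Hmgb1, chr5:148989882-148990070, minus strand: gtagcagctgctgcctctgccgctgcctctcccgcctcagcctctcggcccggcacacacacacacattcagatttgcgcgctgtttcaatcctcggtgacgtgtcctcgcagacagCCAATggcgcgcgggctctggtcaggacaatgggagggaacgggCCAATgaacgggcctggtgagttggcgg
Hmgb2, chr8:57964627-57964686, plus strand: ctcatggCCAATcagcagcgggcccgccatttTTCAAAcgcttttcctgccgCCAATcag
Hmgb3, chrX:70599273-70599522, plus strand: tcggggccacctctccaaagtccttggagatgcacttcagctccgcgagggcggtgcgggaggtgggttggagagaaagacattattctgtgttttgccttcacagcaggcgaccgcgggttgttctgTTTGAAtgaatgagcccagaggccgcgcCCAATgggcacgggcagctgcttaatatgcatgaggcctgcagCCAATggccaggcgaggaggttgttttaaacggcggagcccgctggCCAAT

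In the whole 250 bases, Hmgb2 had 4 CCAAT, the first base of which lay 243, 198, 73 and 11 bases before the start, and 2 TTTGAA, at 218 and 30 bases. Hmgb3 had 3 CCAAT, at 94, 51 and 5 bases, and 1 TTTGAA, at 122 bases. The window of Mki67, which encodes the Ki-67 protein of cycling cells, also held 3 CCAAT and 2 TTTGAA. The first of 2 RefSeq windows of Hmgb1 had 3 CCAAT, at 86, 42 and 11 bases, and 0 TTTGAA, and the second had 0 of either. GC boxes numbered 0 and 4 in these windows of Hmgb1, 1 in that of Hmgb2, 1 in that of Hmgb3 and 2 in that of Mki67. None of these windows held TTTNNCGC. Of 32851 RefSeq windows of the same length, 33.8% held a CCAAT, 2.79% held 3 or more, 16% held a TTTGAA, 4.28% a TTTNNCGC and 32.7% a GC box, and 0.381% held 3 or more CCAAT together with a TTTGAA. In the Hmgb2 window 190 bases lie in an annotated UTR, among them the CCAAT at 73 and 11 bases and the TTTGAA at 30 bases. In the first Hmgb1 window 61 bases do, among them the CCAAT at 11 bases. The matches are letters in a window and no binding was measured.

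Hmgb1 was the steadiest and, in most libraries, the most abundant of the genes. It lies on chromosome 5 of GRCm39 at 148983445 to 149121815, minus strand, has 6753 exonic bases, and ranked 912 of 14329 by mean and 931 by median normalized count. In WT mice it measured 2374, 3074 and 2484 normalized counts after Control ST and 3836, 2788, 2797 and 2076 after K/BxN ST. In TASTPM mice it measured 2996, 2485 and 1993 after Control ST and 5243, 3438, 1839 and 2278 after K/BxN ST. In each genotype the K/BxN ST values ran from below the lowest to above the highest Control ST library.

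The fitted change of Hmgb1 with K/BxN ST was 0.10 ± 0.31 (SE) on the log2 scale in WT, with an adjusted p of 0.948 from limma, and 0.26 ± 0.31 in TASTPM, with an adjusted p of 0.964. Group means were 2874 ± 725 (SD, n = 4) against 2644 ± 376 (n = 3) in WT and 3199 ± 1520 (n = 4) against 2491 ± 501 (n = 3) in TASTPM. The exact permutation test over the 35 splits of 7 libraries gave p = 0.743 in WT and p = 0.629 in TASTPM, two-sided. At 4 against 3 libraries the smallest p this test can give is 0.0571. The signs turned without the Ly6C-high libraries, to -0.12 in WT and -0.26 in TASTPM. Over the mean of Control ST in the same genotype, those 4 libraries stood at 1.45-fold and 1.05-fold in WT and 2.1-fold and 1.38-fold in TASTPM, and the other K/BxN ST libraries at 1.06-fold and 0.785-fold in WT and 0.738-fold and 0.914-fold in TASTPM.

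Hmgb2 split the K/BxN ST libraries of both genotypes. It lies on chromosome 8 at 57964687 to 57969276, plus strand, with 4009 exonic bases. In WT mice it measured 232, 428 and 465 normalized counts after Control ST and 7178, 3226, 391.8 and 430 after K/BxN ST. In TASTPM mice it measured 454, 578 and 499 after Control ST and 9668, 5527, 261 and 458 after K/BxN ST. In both genotypes 2 of the 4 K/BxN ST libraries, the Ly6C-high ones, were above every Control ST library. The other 2 lay inside the range of Control ST in WT, and in TASTPM 1 lay inside it and 1 below it. The same gene thus ranked 1313 of 14329 by mean and 5242 by median normalized count.

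Set against the Control ST mean, Hmgb2 was 19.1-fold and 8.6-fold in the Ly6C-high WT libraries, and 1.04-fold and 1.14-fold in the other WT K/BxN ST libraries. In TASTPM it was 18.9-fold and 10.8-fold in the Ly6C-high libraries, and 0.511-fold and 0.897-fold in the others. Group means were 2807 ± 3203 (SD, n = 4) against 375 ± 125 (n = 3) in WT, a ratio of 7.48, and 3978 ± 4509 (n = 4) against 511 ± 62.8 (n = 3) in TASTPM, a ratio of 7.79. The SD of each K/BxN ST group was larger than its mean. On the log2 scale the change was 1.97 ± 1.17 (SE) in WT, with an adjusted p of 0.741 from limma, and 1.65 ± 1.17 in TASTPM, with an adjusted p of 0.964. The exact permutation test gave p = 0.286 in WT and p = 0.514 in TASTPM, two-sided.

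Without the 4 Ly6C-high libraries the log2 change of Hmgb2 was 0.19 in WT and -0.55 in TASTPM. Count models, which take the change from the mean on the linear scale, gave larger changes and no call. The quasi-likelihood test of edgeR on the recovered reads gave 2.93 in WT, with an adjusted p of 0.747, and 2.97 in TASTPM, with an adjusted p of 0.996. DESeq2 gave 2.91 and 2.97 with adjusted p values of 0.340 and 0.555.

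Outside the Ly6C-high libraries Hmgb3 was at 0 in 7 of 10 libraries and measured at most 41.1 normalized counts. It lies on the X chromosome at 70591492 to 70605868, plus strand, with 4583 exonic bases, and ranked 10141 of 14329 by mean and 12588 by median normalized count. In WT mice it measured 0, 41.1 and 17.2 normalized counts after Control ST and 190, 120, 17.9 and 0 after K/BxN ST. In TASTPM mice it was 0 in all 3 libraries after Control ST and measured 416, 243, 0 and 0 after K/BxN ST. It had reads in 7 of the 14 libraries, and so passed the filter of 10 reads in 7 libraries with none to spare, while Hmgb1 and Hmgb2 had reads in every library. Of those 7 libraries, 4 were the Ly6C-high ones and the other 3 were WT libraries.

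In WT the mean of Hmgb3 was 82.0 ± 89.3 (SD, n = 4) after K/BxN ST and 19.4 ± 20.6 (n = 3) after Control ST, a ratio of 4.22. The log2 change was 1.49 ± 2.34 (SE), with an adjusted p of 0.888 from limma, and p = 0.514 in the two-sided exact permutation test. In TASTPM the mean of 165 ± 203 (n = 4) was at least 53.7-fold higher than the mean of 3 reads in each Control ST library, against 0 reads counted there. The log2 change was 4.16 ± 2.34, with an adjusted p of 0.964 from limma and p = 0.571 in the exact permutation test, since the other 2 libraries of TASTPM K/BxN ST were at 0 as well. Without the Ly6C-high libraries the values were -1.07 in WT and 0.00 in TASTPM, where every library left was at 0.

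The call on Hmgb3 in TASTPM depended on the model. DESeq2 fitted to the 4 groups gave an adjusted p of 0.339 with the filter on low counts and 0.176 without it, and edgeR gave 0.996. DESeq2 fitted to the 7 TASTPM libraries alone, without the filter, a setting chosen after seeing the data, called it with an adjusted p of 3.48e-07, from the same 2 libraries with reads. Hmgb3 is X-linked, and the 4 Ly6C-high libraries had 633 to 917 normalized counts of the Y-linked Ddx3y and 0 to 12.5 of Xist, while the other 10 ranged from 0 to 1481 and from 1.17 to 5816. Library 3 of WT Control ST had reads of both, with Ddx3y at 236 and Xist at 1706, as had library 3 of TASTPM Control ST, at 1481 and 202. Libraries 1 and 2 of WT Control ST and 3 of TASTPM K/BxN ST had Ddx3y at 653, 1027 and 1048. Their Xist was 2.81, 45.3 and 1.17, and their Hmgb3 0, 41.1 and 0. The part of sex in these levels was not tested.

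**Figure D1:**
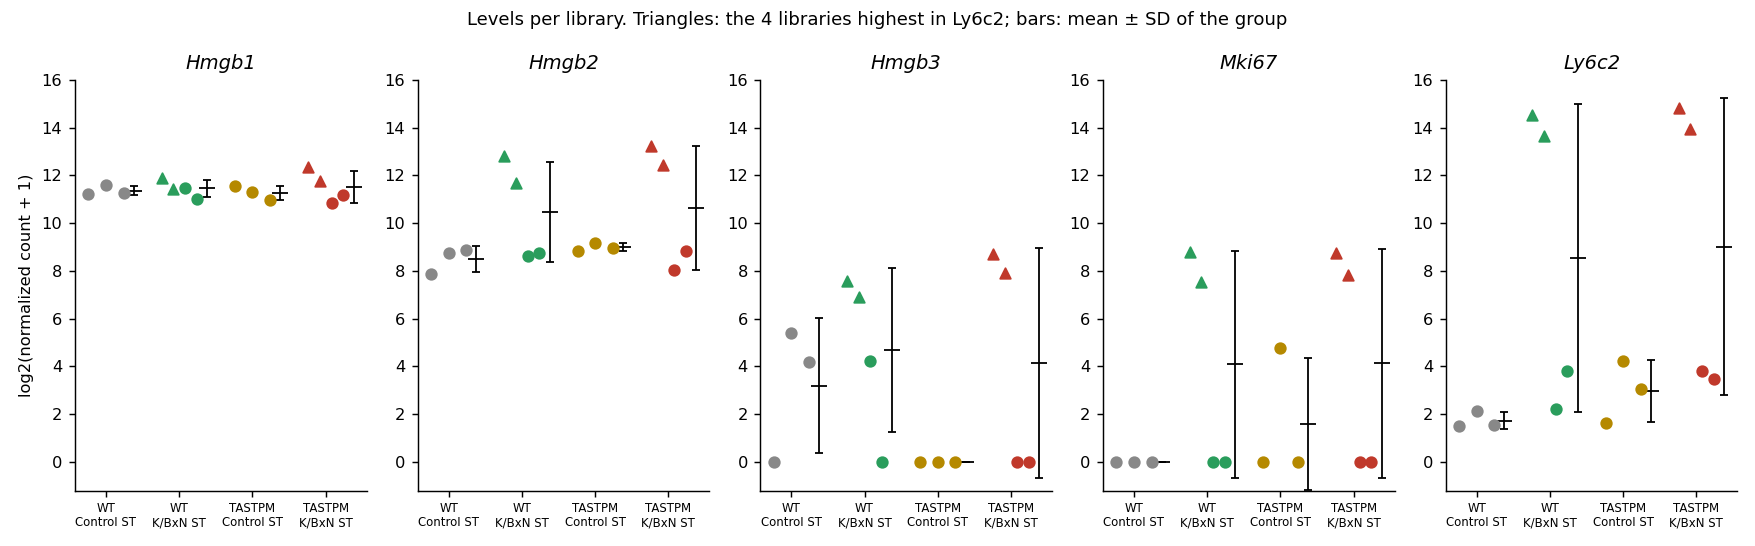
Levels of Hmgb1, Hmgb2, Hmgb3, Mki67 and Ly6c2 in each of the 14 libraries, as log2(normalized count + 1), by genotype and serum. Triangles are the 4 Ly6C-high libraries, circles the other 10, and the bars the mean ± SD of each group; Hmgb2 reached 3226 to 9668 normalized counts in the triangles and 232 to 578 in the circles, while the Hmgb1 ranges overlap.

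No member was called by limma, at an adjusted p below 0.05 and an absolute log2 fold change above 1, in either genotype. Among all 12645 genes tested, 1 was called in WT (0.00791%) and 0 in TASTPM (0%) by limma, which at an unadjusted p below 0.05 had 902 genes in WT and 533 in TASTPM. edgeR called 0 in both, with 782 and 509 genes at an unadjusted p below 0.05. DESeq2 with the filter called 127 in WT and 16 in TASTPM. Nor did the 2 serum groups of either genotype part without overlap for any member. Among the genes tested, 3.67% had all K/BxN ST libraries on top and 3.71% all of them at the bottom in WT, and 2.67% and 2.74% did in TASTPM.

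The effect of serum on the members was compared between genotypes by the interaction term, in which 0 of 12645 genes (0%) were called by limma, with 385 at an unadjusted p below 0.05. edgeR called 0 with 329 at that level, and DESeq2 with the filter called 12. By limma the interaction was 0.17 ± 0.44 (SE) for Hmgb1, -0.32 ± 1.66 for Hmgb2 and 2.67 ± 3.31 for Hmgb3 on the log2 scale, positive where the change was larger in TASTPM, and the adjusted p from limma was 0.999 for each. The standard errors leave room for differences of several fold in Hmgb2 and Hmgb3. Between genotypes after Control ST, TASTPM minus WT was -0.10 ± 0.33 for Hmgb1, 0.50 ± 1.26 for Hmgb2 and -3.19 ± 2.50 for Hmgb3. After K/BxN ST it was 0.07 ± 0.29, 0.18 ± 1.09 and -0.53 ± 2.17, and for Hmgb3 the direction turned with the measure, since the mean was 165 normalized counts in TASTPM and 82.0 in WT and the log2 difference was 0.99 with edgeR and 1.00 with DESeq2. No member was called by limma in either, and 0 of 12645 genes (0%) were, with 704 (3.41% higher and 2.16% lower) and 241 at an unadjusted p below 0.05. edgeR also called 0 in both, with 582 and 184 genes at an unadjusted p below 0.05, and DESeq2 with the filter called 41 after Control ST and 0 after K/BxN ST. Without the 4 Ly6C-high libraries the interaction was -0.14 ± 0.34 for Hmgb1, -0.75 ± 0.59 for Hmgb2 and 1.07 ± 2.93 for Hmgb3, and the genotype difference after K/BxN ST was -0.24 ± 0.26, -0.25 ± 0.46 and -2.12 ± 2.27. The lower Hmgb3 in TASTPM Control ST rested on 2 libraries of WT Control ST, at 41.1 and 17.2 normalized counts, since the third and all 3 of TASTPM were at 0, and its exact permutation test gave p = 0.400, where 3 against 3 cannot go below 0.1.

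**Figure D2:**
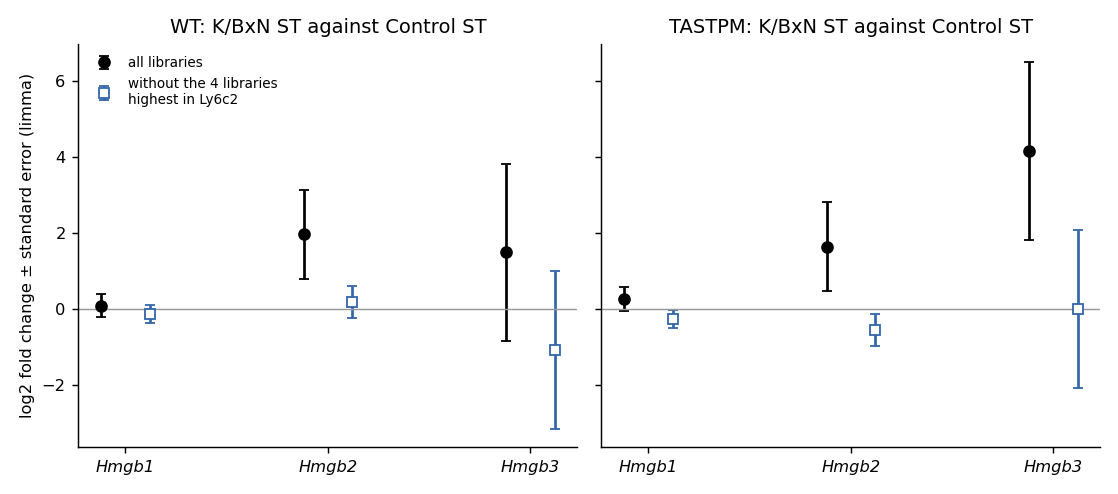
Log2 fold change with serum (K/BxN over Control) of each HMGB gene, with its standard error from limma, for WT (left) and TASTPM (right). Filled circles use all 14 libraries and open squares leave out the 4 Ly6C-high ones; in WT Hmgb2 moves from 1.97 to 0.19, in TASTPM from 1.65 to -0.55.

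The rule asked for the members to be set beside Mki67 and Ly6c2. Mki67 measured 444 and 184 normalized counts in the Ly6C-high WT libraries and 428 and 224 in the TASTPM ones, 26.6 in library 2 of TASTPM Control ST, and 0 in the other 9. It failed the filter on low counts and was fitted beside the genes that passed it. Its log2 change was 4.08 ± 2.61 (SE) in WT and 2.54 ± 2.61 in TASTPM, with adjusted p values from limma of 0.760 and 0.964, and that of Ly6c2 was 6.82 ± 3.15 in WT and 6.04 ± 3.15 in TASTPM, with adjusted p values of 0.696 and 0.964.

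Hmgb2 and Hmgb3 were above all 10 other libraries in the 4 Ly6C-high ones, as were Mki67 and Ly6c2. Of the 12645 genes tested, 7.63% had this pattern and 2.51% the reverse, and the libraries were set apart by a transcript of the same data, so the counts are a description. Hmgb1 did not have it, with 2788 to 5243 normalized counts in the Ly6C-high libraries and 1839 to 3074 in the others. Within the 4 libraries Hmgb1 and Hmgb2 had the same order as Ly6c2, highest in TASTPM library 1, then WT library 1, TASTPM library 2 and WT library 2. Hmgb3 was instead higher in TASTPM library 2 than in WT library 1, and Mki67 was highest in WT library 1.

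In these 4 libraries the genes were also set against each other as ratios of normalized counts. Hmgb2 was 33.2% and 35.3% of Ly6c2 in the TASTPM libraries and 30.5% and 25.0% in the WT ones. Hmgb3 was 1.43% and 1.55% of Ly6c2 in TASTPM and 0.807% and 0.934%, lower than in either TASTPM library, in WT. Mki67 was 1.47% and 1.43% of Ly6c2 in TASTPM and 1.89% and 1.43% in WT. Hmgb2 outnumbered Hmgb1 there, with ratios of 1.84 and 1.61 in TASTPM and 1.87 and 1.16 in WT, while in the other 10 libraries the ratio lay between 0.0979 and 0.250. In bulk samples, more cells of a type and more RNA per cell cannot be told apart.

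Because the 14 libraries fell into separate clusters on Ly6c2, no correlation of an HMGB gene with Ly6c2 over all of them is given. Within the 10 libraries with low Ly6c2, Hmgb2 had a Pearson r of 0.24 with Ly6c2 on the log2 scale (permutation p = 0.489, Spearman rho 0.33 with p = 0.350), and r was -0.04 without the 2 libraries farthest from the median. Hmgb1 had an r of -0.61 (permutation p = 0.0664, adjusted over 3 relations 0.199) and a rho of -0.41 with p = 0.247, and r was -0.72 without the 2 farthest libraries. Hmgb3 had an r of -0.50 (permutation p = 0.140, adjusted 0.209) and a rho of -0.38 with p = 0.283, and r was -0.40 without the 2 farthest. At 1.87 to 17.8 normalized counts Ly6c2 itself was counted in few reads there. Relations with Mki67 could not be tested in these 10 libraries, in which 9 had 0.

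**Figure D3:**
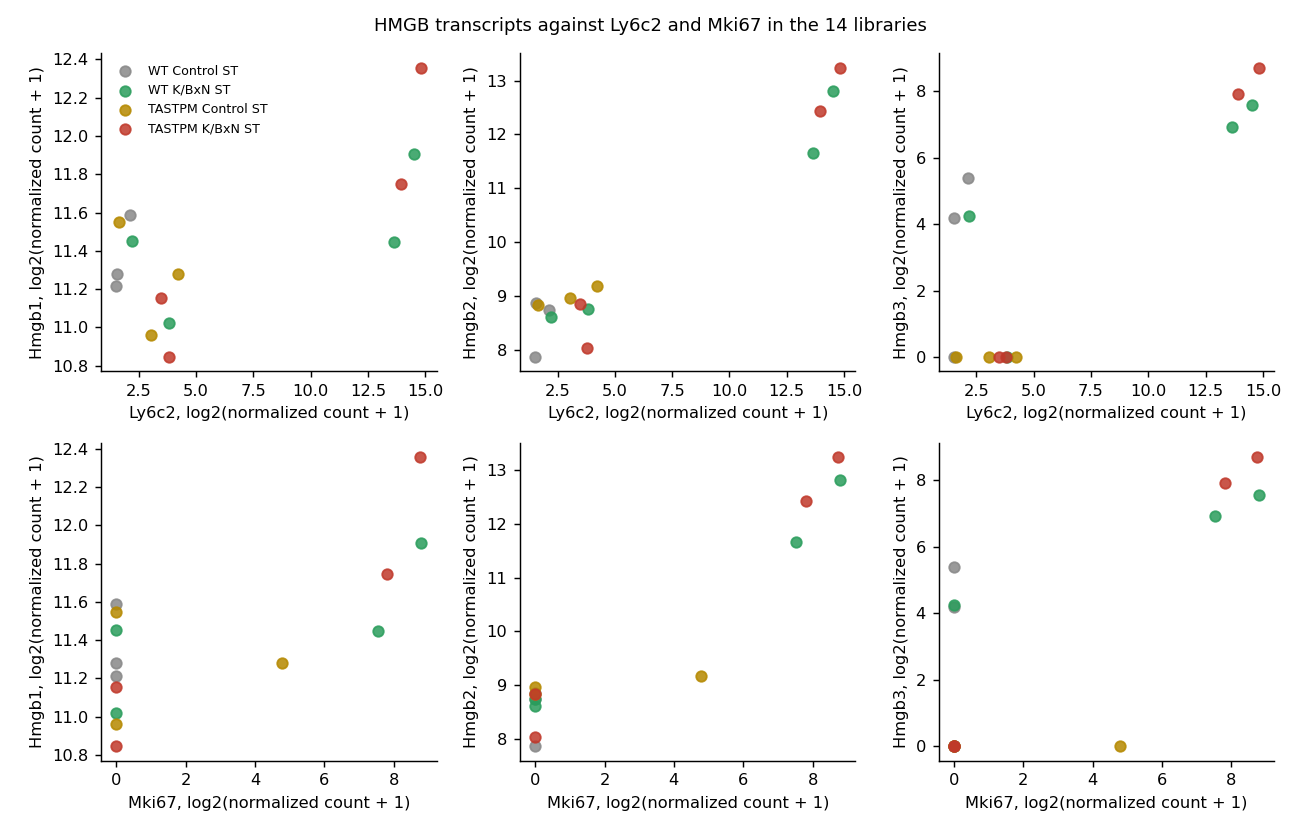
Each HMGB gene (vertical axes) against Ly6c2 (top) and Mki67 (bottom) in the 14 libraries, as log2(normalized count + 1), coloured by group. The 4 Ly6C-high libraries stand apart at the right of each panel, all of them above the other 10 for Hmgb2 and Hmgb3.

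Levels were compared between members per length, as normalized counts per kilobase of exon. The median over the 10 libraries with low Ly6c2 was 360 for Hmgb1, 110 for Hmgb2 and 0 for Hmgb3. Over the 4 Ly6C-high libraries it was 539 for Hmgb1, 1585 for Hmgb2 and 47.2 for Hmgb3. Hmgb1 and Hmgb2 thus changed places in the order between the 2 kinds of library, and Hmgb3 was lowest in both.

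The genes most like each member over the 14 libraries, by Pearson r on the log2 scale among all genes tested, are given as a description, since the clusters of libraries are in every such r. For Hmgb2 the closest was Gm4739 (r = 0.99), an annotated processed pseudogene that shares a run of 554 bases with it. Prdx6, a peroxiredoxin, and Ifitm3, an interferon-induced membrane protein, followed with r = 0.98 each, then the actin-binding Tmsb10 with 0.98 and the Arp2/3 subunit Arpc1b with 0.97. Ifitm3 measured 12281 to 32670 normalized counts in the Ly6C-high libraries and 289 to 1009 elsewhere. For Hmgb3 the closest were Dram1, a lysosomal protein tied to autophagy (r = 0.93), D8Ertd738e (0.89), Gstp1 (0.89), Rpl4 (0.89) and Snx1 (0.88). For Hmgb1 they included Gm10053 (r = 0.91), Rab32 (0.90), Lsm3 (0.90) and Ube2d3 (0.90). Between members r was 0.84 for Hmgb2 with Hmgb3, 0.82 for Hmgb1 with Hmgb3 and 0.81 for Hmgb1 with Hmgb2.

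Copies of the HMGB genes limit how surely reads were placed. Stretches of Hmgb1 transcripts recur in 103 other annotated genes, 27 of them with 150 bases or more, the length of a read, and 15 of the 103 are in the deposited values, among them 5 pseudogenes named after Hmgb1. Their mean normalized counts lay between 11.2 (Gm47820) and 434 (Gm5518), and their summed counts, which are separate from those of Hmgb1, equalled 65.5% of the Hmgb1 count. Hmgb1-ps2 had a mean of 242, Hmgb1-ps5, which lies inside Ctss, 295, Hmgb1-ps1 35.7, Hmgb1-ps7 16.02 and Hmgb1-ps8 37.7. None of these 5 was called in any comparison by limma, where the smallest adjusted p was 0.706, that of Hmgb1-ps5 for serum in WT (-0.71 ± 0.35). Hmgb1-ps8 was higher in all 4 TASTPM K/BxN ST libraries than in all 3 of TASTPM Control ST, as were 2.67% of all genes tested. Its log2 change was 1.82 ± 0.87, with p = 0.0571 in the exact permutation test, the smallest possible at 4 against 3. It shares no run longer than 96 bases with Hmgb1.

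Hmgb2 shares stretches with 7 other genes, of which Gm4739, Gm13237 and Tmx3 are in the deposited values, the last with 58 bases. Gm4739 came to 7.60% to 14.6% of Hmgb2 in each library, and measured 362 to 958 normalized counts in the Ly6C-high libraries and 21.6 to 72.7 in the others. Gm13237, which shares 282 bases, measured 95.7 to 686 and 0 to 5.55. Of the 6 genes that share stretches with Hmgb3, only Gm8850 is in the deposited values, at 0 to 13.3 normalized counts. The Hmgb1 gene region overlaps 14 other annotated genes, Uspl1 among them, and the Hmgb2 and Hmgb3 regions 1 each. No strand setting of the counting is given in the sources used here, so reads of overlapping genes cannot be told apart.

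Other genes of the pathway came from lists that are given by counts and medians beside all genes tested. Of 19 relatives that passed the filter (HMGN, HMGA and HMG-box proteins), 0 were called in either genotype, and at an unadjusted p below 0.05 limma had 1 higher and 1 lower in each, against 4.77% and 2.36% of all genes in WT and 2.62% and 1.60% in TASTPM. The median log2 change was 0.27 in WT and 0.14 in TASTPM, against 0.06 and 0.01 over all genes. The nucleosome-binding Hmgn1 measured -0.54 ± 0.21 (SE) in WT (adjusted p of 0.668 from limma), and Ssrp1, a subunit of the FACT histone chaperone, 0.88 ± 0.38 (adjusted p of 0.684 from limma). In TASTPM Hmga1 measured 0.83 ± 0.38, with an adjusted p of 0.964. Of the 19, 2 (10.5%, near the 7.63% of all genes tested) were above the other 10 libraries in the Ly6C-high ones, Sp100 and Hmgn2, the latter at 2447 to 9668 against 885 to 1770 normalized counts.

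Of 15 tested receptors and adaptors of HMGB signalling, 0 were called, and the median log2 change was 0.08 in WT and 0.09 in TASTPM. Tlr4, the receptor of the disulfide form of HMGB1, measured 2509 to 3706 normalized counts in the Ly6C-high libraries and 3850 to 8350 in the others. Ly96, which encodes MD-2, measured 1042 to 1310 against 1420 to 2263, and Havcr2, which encodes TIM-3, 2863 to 5698 against 7472 to 12360. These were the 3 of 15 below all other libraries, as were 9 of 12 microglial markers and 2.51% of all genes tested. Myd88, the adaptor of TLR signalling, at 2763 to 7735 against 1517 to 2408, and Cd24a, at 296 to 1234 against 0 to 69.3, were the 2 above (13.3%, against 7.63% of all genes tested). The serum change of Ly96 was -0.57 ± 0.21 in WT (adjusted p of 0.645 from limma) and -0.52 ± 0.21 in TASTPM (adjusted p of 0.964 from limma). Irak1, a kinase downstream of MyD88, measured 0.63 ± 0.23 in TASTPM (adjusted p of 0.964 from limma), and Irak4 0.68 ± 0.35 in WT (adjusted p of 0.712 from limma).

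Among 16 tested genes of HMGB1 modification, export and release, 0 were called, with medians of 0.30 in WT and 0.31 in TASTPM. Hdac1, a deacetylase, had the smallest p in both genotypes, with 0.69 ± 0.31 in WT (adjusted p of 0.684 from limma) and 0.73 ± 0.31 in TASTPM (adjusted p of 0.964 from limma). Prdx2, a peroxiredoxin, measured 0.61 ± 0.34 in WT and Casp1, the inflammasome protease, 0.54 ± 0.33 in TASTPM, neither with p below 0.05. In the Ly6C-high libraries 6 of the 16 (37.5%, against 7.63% of all genes tested) were above the other 10, Prdx1, Prdx2, Txn1, Gsdmd, Casp1 and Ripk3. Txn1, thioredoxin, measured 1654 to 3001 against 422 to 749 normalized counts, and Gsdmd, the pore-forming gasdermin D, 1380 to 1685 against 609 to 1328.

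Of 10 tested partners of HMGB2 in the SET complex and in DNA repair, 0 were called, with medians of 0.50 in WT and 0.18 in TASTPM, and 4 (40%, against 7.63% of all genes tested) were above the other libraries in the Ly6C-high ones, Set, Anp32b, Nme1 and Top2a. Anp32b measured 1236 to 2913 against 203 to 672 normalized counts and Set 1470 to 2209 against 781 to 1412. Prkdc, the catalytic subunit of the DNA-dependent kinase, was the one with a negative value at an unadjusted p below 0.05 in WT, -1.63 ± 0.59 (adjusted p of 0.642 from limma). It ran from 505 to 828 normalized counts in WT Control ST and from 135 to 406 in WT K/BxN ST, without overlap. In WT, 3.71% of all genes tested had every K/BxN ST library below every Control ST library. In TASTPM the smallest p were those of Nme1, with 1.00 ± 0.48, and Set, with 0.41 ± 0.30, both with an adjusted p of 0.964.

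The proliferation genes were a list of 30, of which 26 passed the filter. None was called by limma, and 8 in WT and 5 in TASTPM were higher at an unadjusted p below 0.05, with 0 lower in either. Of all genes tested, 4.77% were higher at that level in WT and 2.62% in TASTPM, and 2.36% and 1.60% lower. Without the Ly6C-high libraries, 3 were higher and 0 lower in WT, and 0 higher and 3 lower in TASTPM. The median log2 change was 2.34 in WT and 1.34 in TASTPM, and 0.43 and -0.59 without the Ly6C-high libraries. In those 4 libraries 20 of 26 were above the other 10, against 7.63% of all genes tested. Top2a, the topoisomerase of dividing cells and also on the list of HMGB2 partners, measured 2679 and 1296 normalized counts in the TASTPM and 1706 and 548 in the WT ones, against 0 to 72.1. Pclaf, which binds PCNA, measured 394 to 2517 against 0 to 110, with a log2 change in WT of 7.04 ± 1.63 (adjusted p of 0.377 from limma), and its WT Control ST libraries had 0.937, 0 and 0 normalized counts. Without the Ly6C-high libraries its change in WT was 4.77 ± 1.42 (adjusted p of 1.00). Mcm6 and Rrm1, of DNA replication, measured 2.29 ± 0.67 and 1.23 ± 0.48 in TASTPM, each with an adjusted p of 0.964. The summed level of the list was 0.146% to 0.423% of reads in the Ly6C-high libraries and 0.0536% to 0.0668% in the others, and its part in the Hmgb2 and Hmgb3 values was not tested.

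**Figure D4:**
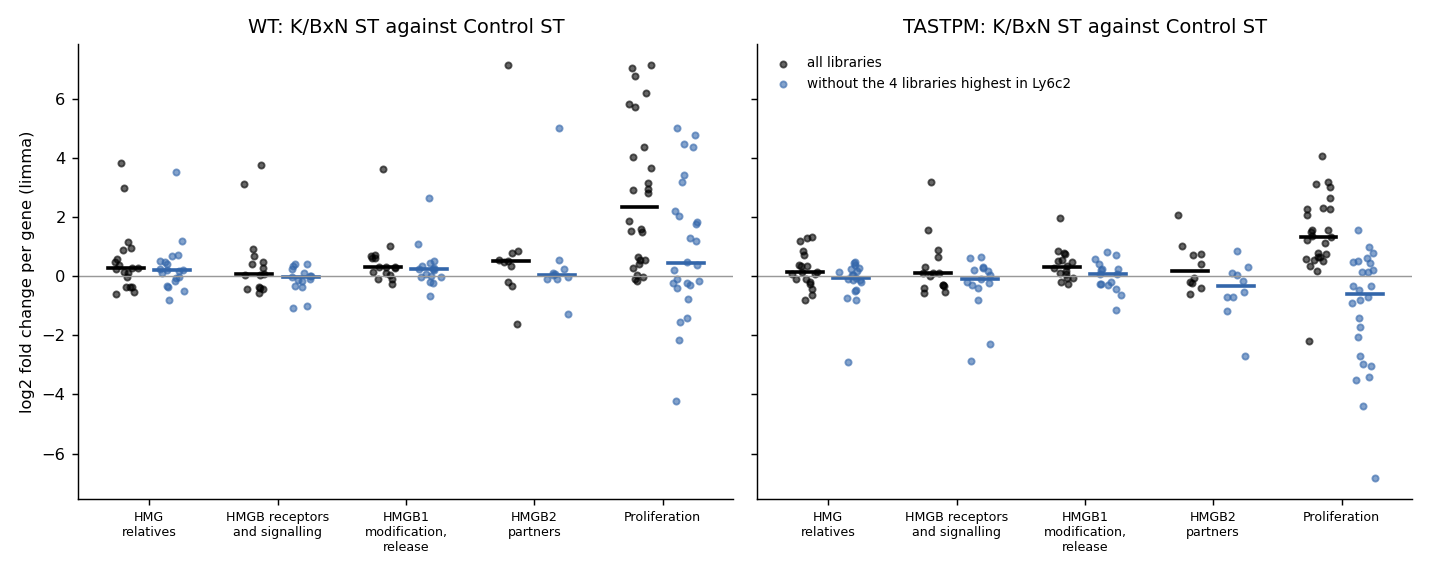
Log2 fold change with serum (K/BxN over Control) of each tested gene in the lists around the HMGB genes, for WT (left) and TASTPM (right), with bars at the median. Black uses all 14 libraries and blue leaves out the 4 Ly6C-high ones; in WT the median of the proliferation list moves from 2.34 to 0.43, in TASTPM from 1.34 to -0.59, and the other lists stay within 0.50 of 0 in both.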

How the data were processed

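Bulk RNA-seq libraries of sorted mouse dorsal horn microglia were amplified with the SMART-Seq kit by the authors, who aligned reads of 150 bases with HISAT2 2.1 to GRCm39 and counted them per gene with featureCounts 1.5.2. The deposited values are a normalized signal, reads divided by 1 factor per library. Dividing by the value of 1 read gave whole numbers for 100% of the entries (tolerance 0.01). Depth was 14223015 to 20239175 reads per library, and floors cover counting error only.

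Columns of TASTPM K/BxN ST carry the label numbers. Other columns were matched to groups by their headers and numbered by position.

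The 12645 genes that had 10 or more reads in 7 or more libraries were tested on log2(value + 1), which understates changes of low genes, with limma 3.58.1 (R 4.3.3), a variance trend and Benjamini-Hochberg adjustment over all genes tested. edgeR 4.0.16 and DESeq2 1.42.0 on recovered reads were alternatives, since the unit is not a count. Single genes also had two-sided exact permutation tests. The tests were checked on counts simulated with the spread of the Control ST libraries. That check does not cover the split within the K/BxN ST groups.

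The members and lists were chosen with earlier results of these data known. Genes named in the text are the members, Mki67 and Ly6c2, entries whose symbol starts with Hmgb, the 5 genes most like each member, and per list the 2 with the smallest p per serum comparison, except a few items that are not reported here. List genes named for lying above or below the other libraries, Gm4739, Gm5518, Gm47820, Gm13237, Gm8850 and Tmx3, Ddx3y and Xist were chosen after their values were seen. Gene models are GENCODE vM39, later than the annotation the authors used. Lists for red cells, lymphocytes, progenitors and neural or endothelial cells were computed and took at most 0.242%, 0.00149%, 0.0971% and 0.0186% of the reads of a library.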

Additional observations from a re-analysis of the deposited data

How the results depend on the processing

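Normalization by TMM, upper quartile, recomputed size factors or library totals, a pseudocount of 0.5, other filters and robust variances left the direction and the call of each HMGB change as given. Library totals moved the share of higher genes among those with unadjusted p below 0.05 in WT from 66.9% to 76.5%. The genes called for serum in WT, 1 by limma, were 0 with a pseudocount of 4, 0 with edgeR, 0 with just the groups compared in the fit, 0 without the 4 Ly6C-high libraries, 3 with Ly6c2 and 3 with Mki67 as a covariate, 127 with DESeq2 and the filter, 275 without the filter and 268 with DESeq2 on the 2 groups alone. In TASTPM, where limma called 0, these 3 DESeq2 fits called 16, 88 and 111. DESeq2 with and without the filter called 12 and 36 for the interaction and 41 and 84 between genotypes after Control ST, where 1 was called with the Ly6c2 covariate, 1 with the Mki67 covariate and 1 without the Ly6C-high libraries. After K/BxN ST 1 was called with the Ly6c2 covariate. Ly6c2 itself was called by DESeq2 at 11.91 in WT and 10.29 in TASTPM with the filter, 11.90 and 10.28 without it, and 11.91 and 10.29 on the 2 groups. That last fit also called Mki67 in WT (23.15) and Hmgb3 in TASTPM (23.06), where the Control ST libraries were all at 0, and such a fitted value is no bound.

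With Ly6c2 as a covariate the serum change turned to -0.35 in WT and -0.13 in TASTPM for Hmgb1, -0.49 and -0.54 for Hmgb2, -2.55 in WT for Hmgb3, and -1.13 and -2.07 for Mki67. With Mki67 as a covariate it turned to -0.25 for Hmgb1 and -1.51 for Hmgb3 in WT, the interaction of Hmgb2 to 0.36 and its genotype difference after Control ST to -0.21. The Ly6C-high libraries are all K/BxN ST, so these covariates and the serum overlap. Without those libraries it turned to -0.12 in WT and -0.26 in TASTPM for Hmgb1, -0.55 in TASTPM for Hmgb2, -1.07 in WT for Hmgb3 and -1.60 in TASTPM for Mki67, the interaction of Hmgb1 to -0.14, and the genotype difference after K/BxN ST to -0.24 for Hmgb1 and -0.25 for Hmgb2. The interaction of Hmgb2 was 0.05 with edgeR and 0.06 with DESeq2 with or without the filter, that of Hmgb3 8.28 and 7.70 against a TASTPM Control ST at 0, and the genotype difference of Hmgb3 after K/BxN ST 0.99 with edgeR and 1.00 with either DESeq2 fit. The cause of these turns was not tested.

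Leaving out 1 library at a time gave 0 to 17 genes called for serum in WT (14 without library 2 and 17 without library 3 of WT Control ST), 0 to 1 in TASTPM, 0 to 3 for the interaction and 0 to 11 between genotypes after Control ST. The serum change of Hmgb1 ran from -0.05 to 0.24 in WT, negative without WT K/BxN ST library 1, and from -0.01 to 0.49 in TASTPM, negative without TASTPM K/BxN ST library 1. In WT that of Hmgb2 ran from 1.18 to 2.58, in TASTPM from 0.78 to 2.51, and that of Hmgb3 from -0.10, without WT Control ST library 1, to 3.05 in WT, with 2.64 to 5.54 in TASTPM. The interaction ran from -0.11 to 0.39 for Hmgb1, from -1.19 to 0.55 for Hmgb2 and from 1.10, without WT K/BxN ST library 4, to 4.26, without WT Control ST library 1, for Hmgb3. Between genotypes Hmgb1 ran from -0.24 to 0.05 after Control ST and from -0.21 to 0.30 after K/BxN ST, where Hmgb2 ran from -0.69 to 1.05 and Hmgb3 from -2.09 to 0.86. No HMGB gene was called in any of these fits. No paired analysis was possible because the labels give each library a number of its own, shared by no other group. Hmgb3 had 0 reads in 7 libraries, which held 14371340 to 19357079 reads on genes, and a count of 0 allows up to 3 reads in each.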
